A study of Homo sapiens with 9 samples.

Results

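The interleukins that epithelial cells can make were followed across HCT116 cells, a human colorectal carcinoma line, before and after exposure to activin A and hepatocyte growth factor (HGF). The 10 genes were listed by name, with earlier results of these data known but with no threshold on their values: IL1A, IL1B, IL18, IL33 and IL36G of the interleukin-1 family, IL6, IL11 and LIF of the interleukin-6 family, IL23A of the interleukin-12 family, and IL32. Of the 33861 genes in the deposited table, 9 were members of this list, and IL33 was not analysed here. A filter on low counts left 20988 genes for testing, and 6 of the members passed it (IL11, LIF, IL1A, IL18, IL23A and IL32), whereas IL1B, IL6 and IL36G did not.

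RNA was sequenced in 9 libraries, 3 per group. The groups were control cells given no factor (NC), cells exposed to 100 ng/mL activin A for 5 days (Activin), and cells given the same activin exposure followed by 20 ng/mL HGF for another 5 days (Activin+HGF). All groups were the same unmodified line, how long the control cells were kept in culture is not stated, and Activin+HGF cells had also been in culture for longer than Activin cells, so HGF and the added days cannot be told apart. The deposited columns of the Activin+HGF libraries bear only the name of the cell line, and they were placed in that group by the sample labels. Nothing states that the libraries of a group came from separate cultures, so a p-value measures the spread between these libraries, which may be technical.

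Depth ran from 57453977 to 77016167 counts per library, so that 3 counts corresponded to 0.0373 to 0.0551 CPM (counts per 1000000 of the scaled library). The scaling was done by edgeR's trimmed mean of M-values (TMM), with factors from 0.783 in Activin+HGF replicate 1 to 1.17 in Activin replicate 1. Over the tested genes, replicates correlated at r = 0.949 to 0.978 and libraries of different groups at 0.883 to 0.950, so these ranges met. All 7 epithelial markers on a list of EPCAM, CDH1, KRT8, KRT18, KRT19, CLDN7 and ELF3 had a row, and their summed FPKM (the authors' measure of fragments scaled to gene length and library size) lay between 656 and 994 in all libraries.

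The interleukins are small secreted proteins by which cells signal to immune cells, to fibroblasts and to each other. Members of the interleukin-1 family act through paired receptors and the adaptor MYD88, and the receptors of IL-1, IL-33 and IL-36 share the chain IL1RAP. IL-1β and IL-18 must be cut by a protease, mainly a caspase, before they are active. IL-1α, by contrast, is active as made and is released from injured epithelium as an alarm signal. Members of the interleukin-6 family act through the shared receptor chain IL6ST (gp130) and the transcription factor STAT3. In the gut, epithelial IL-18 and IL-33 are known for their part in barrier defence, and IL-11 and LIF for their part in repair and in tumours.

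The levels were read per length, as FPKM, so that different genes could be set side by side. Only 2 of the interleukins were present at more than 5 FPKM in any group, IL18, which is held as a precursor in resting epithelium, and LIF, which acts through LIFR and gp130. In control cells IL18 stood at a mean of 17.9 FPKM and LIF at 12.6, without overlap between their libraries. The next members were far lower, IL32 at 0.463, IL11 at 0.42 and IL23A at 0.36 FPKM, and neighbours among these 3 overlapped. IL1A followed at 0.10 FPKM and IL36G at 0.04, and IL1B and IL6 were listed at 0 in every control library.

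In Activin cells the order began with LIF at a mean of 24.5 FPKM, above IL18 at 17.6 in every library. IL11 came next at 2.26 FPKM and did not overlap with its neighbours in this order, while IL23A at 1.32 overlapped with IL32 at 0.60, and IL32 with IL1A at 0.523. In Activin+HGF cells LIF at 19.3 and IL18 at 17.2 FPKM overlapped, because LIF stood at 8.65 FPKM in replicate 1 and at 24.33 and 24.95 in the others. IL11 followed at 3.08 FPKM, and IL1A at 0.60 overlapped with IL23A at 0.457.

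**Figure D1:**
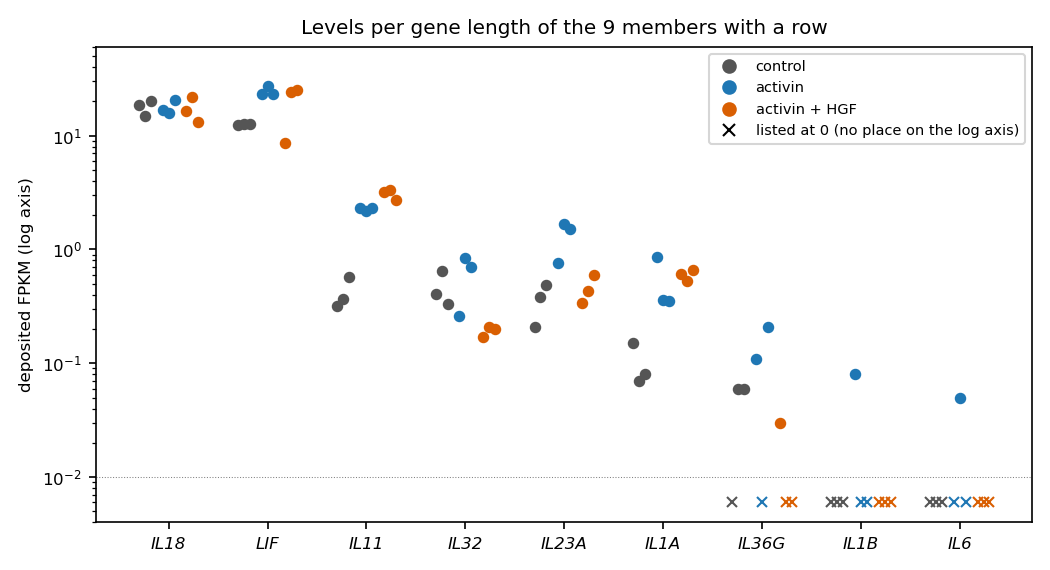
FPKM of each interleukin, on a log axis, with 1 point per library, a colour per group, and crosses below the dotted line for libraries listed at 0. IL18 and LIF lay above all other members in all 3 groups, and IL11 was the next in the Activin and Activin+HGF libraries.

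All 3 comparisons between groups were tested by edgeR across the 20988 genes. A call required a Benjamini-Hochberg adjusted p under 0.05 together with a change of 1 or more, up or down, on the log2 scale. Among all tested genes, 11.4% were called in Activin against NC (6.78% higher, 4.62% lower), and 3 of the 6 tested interleukins were called, all of them higher. In Activin+HGF against NC the call was made for 21.5% of all genes (11.3% higher, 10.2% lower) and for 2 of the 6 interleukins, again higher. Against Activin, 8.09% of all genes were called in Activin+HGF (3.87% higher, 4.21% lower), and 0 of the 6 interleukins by edgeR, although 3 had an unadjusted p under 0.05. DESeq2 also called 0 there, limma on log2(FPKM + 0.1) called 1, and limma on log2(FPKM + 1) called 0. The comparisons share samples, so each is given with its own values. In RNA from whole cultures, fewer cells that express a gene and less of its RNA per cell cannot be told apart.

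**Figure D2:**
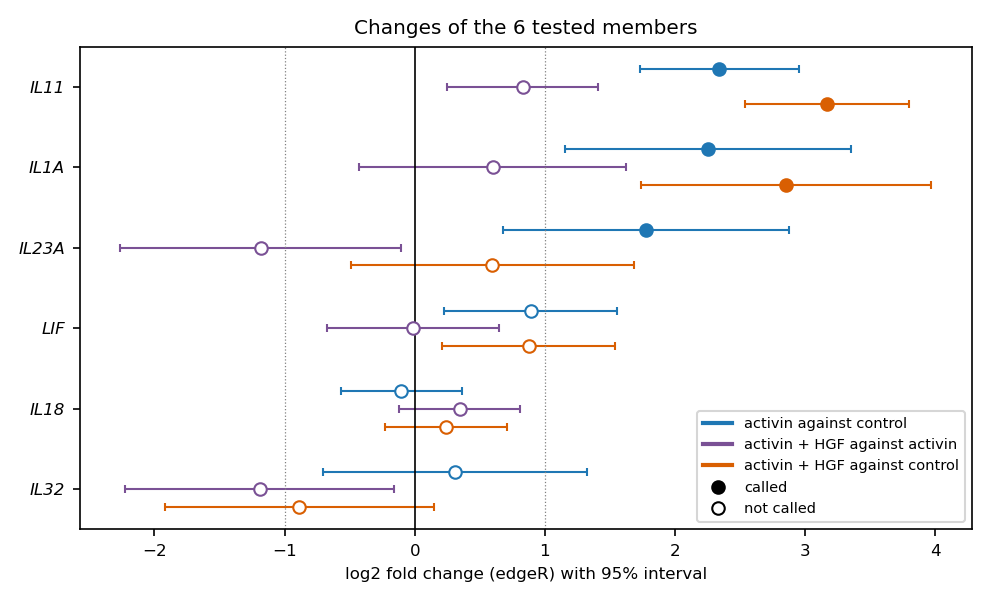
Log2 fold change of the 6 tested interleukins in each comparison, as edgeR gave it, with 95% confidence intervals, filled points for calls, and dotted lines at the fold a call needs. IL11 and IL1A were called in both comparisons with control cells and IL23A in Activin against NC.

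IL11, a cytokine of the interleukin-6 family that acts on fibroblasts and epithelium through IL11RA and gp130, rose in Activin and in Activin+HGF cells. The gene (ENSG00000095752) lies on the minus strand at chr19:55364382-55370463. Counts were 58, 76 and 137 in NC, 450, 429 and 468 with activin, and 712, 787 and 616 with activin and HGF. In CPM these were 0.947, 1.13 and 1.70, then 6.11, 6.87 and 6.23, then 13.1, 11.4 and 9.61. No group overlapped with another, and the order NC, Activin, Activin+HGF held for every library.

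IL11 rose 5.06-fold in Activin against NC, from 1.26 ± 0.394 to 6.40 ± 0.410 CPM (SD, n = 3 libraries each), with a log2 fold change of 2.34 (SE 0.276) and an adjusted p of 0.000431 in edgeR. Against NC it was 8.99-fold higher in Activin+HGF, at 11.4 ± 1.74 CPM (SD, n = 3), with a log2 fold change of 3.17 (SE 0.284) and an edgeR adjusted p of 5.94e-05. Both calls were made in all 17 alternative analyses, including each omission of a library. The step from Activin to Activin+HGF did not pass, with a log2 fold change of 0.83 (95% confidence interval 0.25 to 1.41, edgeR adjusted p = 0.0617), although the 3 libraries of each group did not overlap. Such separation was seen in 32.7% of all genes in that comparison, and the exact permutation test gave p = 0.1 in each comparison, the smallest that 3 against 3 libraries allow.

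The size of the last step depended on the scaling. Where libraries were scaled by their totals, IL11 in Activin+HGF against Activin had a log2 fold change of 0.48, while the median over all genes moved from -0.04 to -0.38. Relative to that median IL11 stood at 0.87 with TMM and at 0.86 with totals. The call did not change.

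LIF, which keeps stem cells undifferentiated in culture and signals through LIFR and gp130, was the most abundant member of its family. Its gene (ENSG00000128342) lies on the minus strand at chr22:30240453-30246759. Counts were 3218, 3750 and 4391 in NC, 6622, 7653 and 6744 with activin, and 2782, 8309 and 8157 with activin and HGF, or 52.6, 55.8 and 54.6 CPM, then 89.8, 123 and 89.7, then 51.1, 121 and 127. The Activin libraries all lay above the control libraries, while Activin+HGF replicate 1 lay below every other library and its 2 companions lay near the highest.

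The means were 54.3 ± 1.62 CPM in NC, 101 ± 18.9 in Activin and 99.7 ± 42.2 in Activin+HGF (SD, n = 3 each). LIF was not called in any comparison. Its log2 fold change was 0.89 in Activin against NC (SE 0.300, edgeR adjusted p = 0.0653), and 0.88 in Activin+HGF against NC (SE 0.300), where the edgeR adjusted p of 0.0472 passed but the fold did not. Without Activin+HGF replicate 1 the latter became 1.19 with an edgeR adjusted p of 0.00158, which is past both limits. In Activin+HGF against Activin the value was -0.01 (95% confidence interval -0.67 to 0.64), and 0.30 without the same library. 2 lncRNA genes on the other strand, LIF-AS1 and AC004264, overlap LIF. They held 81 and 384 counts in all 9 libraries against 51626 for LIF, and whether the counting used strand is not stated.

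IL6, the founding member of the family and a driver of the acute phase response, was near the limit of detection. Its gene (ENSG00000136244, chr7:22725884-22732002, plus strand) had 8 counts in Activin replicate 2 and 0 in the other libraries. A count of 0 allows up to 3 counts, or at most 0.0551 CPM in the shallowest library after scaling, by counting error alone.

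**Figure D3:**
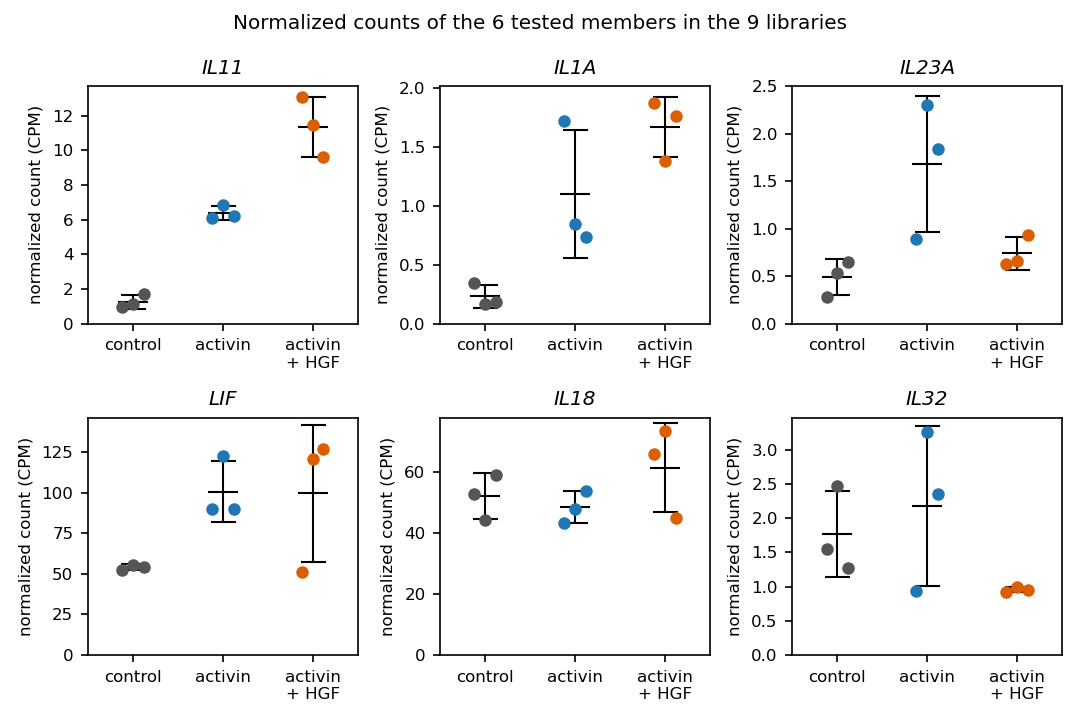
CPM of the 6 tested interleukins on linear axes that start at 0, with 1 point per library, in the order of replicates, and the mean and SD of each group in black (n = 3). IL11 separated all 3 groups, IL1A separated control libraries from the rest, and in LIF the lowest Activin+HGF point, at 51.1 CPM, is replicate 1.

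IL1A encodes IL-1α, which stays bound to its cell or is released when the cell is damaged, and signals through IL1R1 and IL1RAP. The gene (ENSG00000115008) lies on the minus strand at chr2:112773925-112784493, beside IL1B and IL36G on the same chromosome. Counts were 21, 11 and 15 in NC, 127, 53 and 55 with activin, and 102, 95 and 113 with activin and HGF. In CPM these were 0.343, 0.164 and 0.186, then 1.72, 0.848 and 0.732, then 1.87, 1.38 and 1.76. Every treated library was above every control library, while Activin and Activin+HGF overlapped. Among all genes, 42.2% separated in this way in Activin against NC and 53.8% in Activin+HGF against NC.

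IL1A rose 4.76-fold in Activin against NC, from 0.231 ± 0.098 to 1.10 ± 0.542 CPM (SD, n = 3 each), with a log2 fold change of 2.25 (SE 0.496) and an edgeR adjusted p of 0.0112. This call was lost without NC replicate 2 (edgeR adjusted p = 0.0512, log2 fold change 2.12) and without NC replicate 3 (0.0579, 2.11). In Activin+HGF against NC it was 7.22-fold higher, at 1.67 ± 0.258 CPM (SD, n = 3), with a log2 fold change of 2.85 (SE 0.505) and an edgeR adjusted p of 0.00223, and that call was kept without any of the 6 libraries in turn. Activin+HGF against Activin gave a log2 fold change of 0.60 with a 95% confidence interval from -0.42 to 1.63 (edgeR adjusted p = 0.420).

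IL1B, whose product IL-1β is the form that inflammasomes release, was not tested. Its gene (ENSG00000125538, chr2:112829751-112836816, minus strand) had 19 counts in Activin replicate 1 and 0 in the remaining 8 libraries. IL36G, a cytokine of squamous epithelium (ENSG00000136688, chr2:112973203-112985658, plus strand), had 0, 6 and 9 counts in control libraries, 12, 0 and 23 in Activin libraries, and 4, 0 and 0 in Activin+HGF libraries. Each group held at least 1 library at 0, so no difference in IL36G was detectable at this depth. Among all counts from 1 to 40 in the deposited data, 35.0% were multiples of 4, against 25% if evenly spread, so a low count may not be a number of independent fragments.

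IL18, which prompts interferon-γ production by T and NK cells, was abundant in all groups, and no difference passed the test. The gene (ENSG00000150782) lies on the minus strand at chr11:112143253-112164093. It had 52.6, 44.1 and 59.0 CPM in control libraries, 43.4, 47.8 and 53.9 in Activin libraries, and 65.8, 73.4 and 45.0 in Activin+HGF libraries, and all groups overlapped. The log2 fold change was -0.10 in Activin against NC (95% confidence interval -0.57 to 0.36), 0.34 in Activin+HGF against Activin (-0.12 to 0.81) and 0.24 in Activin+HGF against NC (-0.23 to 0.71), with edgeR adjusted p of 0.799, 0.304 and 0.420. All 3 intervals lay within 1 on the log2 scale, so a change of the size a call needs was outside them.

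IL23A encodes the p19 chain of IL-23, a cytokine that sustains T cells of the IL-17 type and needs the p40 chain, encoded by IL12B, to be secreted. The gene (ENSG00000110944, chr12:56334174-56340329, plus strand) had 17, 36 and 52 counts in control libraries, 66, 144 and 138 in Activin libraries, and 34, 45 and 60 in Activin+HGF libraries. In CPM these were 0.278, 0.535 and 0.646, then 0.895, 2.31 and 1.84, then 0.625, 0.654 and 0.936. The Activin libraries lay above the control libraries, and Activin replicate 1 fell within the range of the Activin+HGF libraries.

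IL23A rose 3.43-fold in Activin against NC, from 0.486 ± 0.189 to 1.68 ± 0.718 CPM (SD, n = 3 each), with a log2 fold change of 1.78 (SE 0.497) and an edgeR adjusted p of 0.0323. The call was weak: it was lost in 5 of the 6 fits without 1 library, namely NC replicate 1, 2 or 3 (edgeR adjusted p = 0.112, 0.0833 and 0.0671) and Activin replicate 2 or 3 (0.0851 and 0.0757). It was made in 10 of 17 alternatives in all. Between Activin+HGF and Activin its log2 fold change was -1.18 (95% confidence interval -2.26 to -0.10, edgeR adjusted p = 0.134), and this is the member that limma on log2(FPKM + 0.1) called, at -1.31 with an adjusted p of 0.0446. Activin+HGF against NC gave 0.60 (edgeR adjusted p = 0.391). IL12B was not tested, with 4, 8 and 4 counts in control libraries and 0 in all treated libraries.

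IL32, a cytokine with no close relative that induces other inflammatory cytokines in monocytes, passed no test. Its gene (ENSG00000008517, chr16:3065297-3069819, plus strand) had 1.55, 2.47 and 1.27 CPM in control libraries, 0.936, 3.25 and 2.36 in Activin libraries, and 0.918, 0.989 and 0.951 in Activin+HGF libraries. The Activin+HGF libraries, at 0.953 ± 0.035 CPM (SD, n = 3), lay below every control library, and groups were apart in 53.8% of all genes in that comparison. The log2 fold change there was -0.89 (95% confidence interval -1.92 to 0.14, edgeR adjusted p = 0.174). Set against Activin it was -1.19 (-2.23 to -0.16, edgeR adjusted p = 0.116), and in Activin against NC 0.31 (-0.71 to 1.32, edgeR adjusted p = 0.714), which turned to -0.10 without Activin replicate 2.

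For a look at what the called genes share in sequence, the 250 bases before each RefSeq start on GRCh38.p14 were searched on both strands for 5 motifs. Of the interleukins, 8 had a promoter entry, with 11 entries in all, and LIF and IL18 had none. A gene was counted where any of its entries held a motif, while the shares of all promoters are over single entries. The AP-1 motif TGANTCA, which is its own reverse complement, was in 3 of these 8 genes, IL11, IL1A and IL23A, and in 6.57% of all 35116 promoters. These are also the 3 genes that were called, a comparison made after the calls were known. Of the other genes with an entry, IL1B, IL6 and IL36G were not tested and IL33 was not analysed, so they could not be called. IL32 was thus the only uncalled gene to compare with, and no conclusion is drawn from the match. The sequences are printed to show the motif and its place, with matches in capitals, first IL11 from chr19:55370464-55370713 on the minus strand, then IL23A from chr12:56338634-56338883 on the plus strand, then a shorter stretch of IL1A from chr2:112784488-112784516 on the minus strand.
IL11: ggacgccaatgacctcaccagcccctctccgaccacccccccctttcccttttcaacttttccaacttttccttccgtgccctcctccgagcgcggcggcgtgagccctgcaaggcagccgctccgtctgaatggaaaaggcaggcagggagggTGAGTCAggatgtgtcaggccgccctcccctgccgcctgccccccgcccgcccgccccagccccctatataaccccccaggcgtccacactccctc
IL23A: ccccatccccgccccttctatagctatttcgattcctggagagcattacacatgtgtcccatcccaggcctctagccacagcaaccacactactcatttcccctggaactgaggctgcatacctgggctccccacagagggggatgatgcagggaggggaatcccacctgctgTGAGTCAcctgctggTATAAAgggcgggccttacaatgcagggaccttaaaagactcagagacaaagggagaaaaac
IL1A: gcgaagaagacTGACTCAggcttaagctg

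In IL11 the match TGAGTCA spans bases 96 to 90 before the start, and in IL23A the same letters span bases 77 to 71, followed by TATAAA at bases 62 to 57. The IL23A start lies inside the gene as the deposited table bounds it. In IL1A, TGACTCA lies 12 to 6 bases before one RefSeq start, and a second entry with a start further downstream also holds TGAGTCA at bases 55 to 49. TATAAA was in 10.7% of all promoters and, among the interleukins, in IL1A and IL23A. In IL1A it lay further off, at bases 239 to 234 before the first of these starts, and the second entry did not hold it. The NF-κB motif (ggg, any 2 bases, tt, any base, cc) was in 5.07% of all promoters and in IL6, as GGGATTTTCC at bases 73 to 64, and IL32, as GGGAGTTTCC at bases 99 to 90. The interferon-response motif (gaaa, any 2 bases, gaaa, in 3.02% of all promoters) and the STAT motif TTCCNGGAA (0.968%) were in none of the interleukin entries. These matches describe letters in a window and no binding was measured.

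The other genes of these pathways were read from lists of receptors, antagonists, further cytokines, processing genes and signalling genes, 72 genes in all. Of these, 60 had a row and 51 were tested. In Activin against NC 8 of the 51 were called, all higher (15.7%, against 11.4% of all genes). Activin+HGF against Activin gave 2 higher and 1 lower (5.88%, against 8.09%), and Activin+HGF against NC 11 higher and 1 lower (23.5%, against 21.5%). With scaling by library totals the last 2 splits became 1 higher and 2 lower, and 9 higher and 3 lower. Without regard to direction, these shares over the 51 genes were near those of all genes, but the directions were not. All 8 calls in Activin against NC were higher (15.7%), while 6.78% of all genes were called higher and 4.62% lower. In Activin+HGF against NC the 11 higher and 1 lower stood beside 11.3% of all genes higher and 10.2% lower. The lists were chosen with earlier results of these data known, so no conclusion is drawn from the directions.

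Of the receptors, 2 of 8 tested were called, both higher, in each comparison with NC (25%). Of all genes, 11.4% were called in Activin and 21.5% in Activin+HGF against NC. In Activin+HGF against Activin edgeR called 0, against 8.09% of all genes, and 1 had an unadjusted p under 0.05. DESeq2 and limma on log2(FPKM + 0.1) called 1 each there, and limma on log2(FPKM + 1) called 0. IL1RAP, the chain shared by the receptors of IL-1, IL-33 and IL-36, had 118, 111 and 163 counts in NC, 846, 378 and 879 in Activin, and 509, 489 and 493 in Activin+HGF. Every treated library lay above every control library. Its log2 fold change was 2.38 (SE 0.297) in Activin and 2.11 (SE 0.295) in Activin+HGF against NC, with edgeR adjusted p of 0.000584 and 0.000634.

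IL1RL1, the receptor of IL-33, had 0 counts in all control libraries, 23, 0 and 7 in Activin libraries, and 127, 77 and 55 in Activin+HGF libraries. Against a floor of 3 counts per control library its mean was at least 2.76-fold higher in Activin (edgeR adjusted p = 0.0492), although Activin replicate 2 was at 0 like the controls. In Activin+HGF the mean was at least 29.3-fold higher (edgeR adjusted p = 0.00479). The first of these calls was lost in 5 of the 6 fits without 1 library, all but the fit without Activin replicate 2, and the second in none. IL1R1, which binds IL-1α, was not called, at 0.35 in Activin against NC (edgeR adjusted p = 0.386). IL11RA, IL6ST and LIFR, which receive IL-11 and LIF, had log2 fold changes of 0.61, 0.29 and -0.11 in the same comparison and were not called.

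Among the antagonists, 0 of 4 tested were called in Activin against NC and 0 in Activin+HGF against Activin by edgeR (11.4% and 8.09% of all genes). In each, 1 had an unadjusted p under 0.05, and DESeq2 and both limma analyses called 0. Activin+HGF against NC gave 1 call (25%, against 21.5% of all genes). This was SIGIRR, an inhibitory receptor of the interleukin-1 family that is prominent in gut epithelium, with a log2 fold change of 1.75 (SE 0.259, edgeR adjusted p = 0.000844). IL1RN, which blocks the IL-1 receptor, had 1.26 there (edgeR adjusted p = 0.0733). IL18BP, which traps IL-18, was not called in any comparison.

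Of 10 further cytokines tested, 4 were called in Activin against NC (40%, against 11.4% of all genes), all higher. In Activin+HGF against Activin 2 were called (20%, against 8.09%), and in Activin+HGF against NC 6 (60%, against 21.5%), again with none lower. The list was chosen with earlier results of these data known. TSLP, an epithelial alarm cytokine, had 17, 0 and 19 counts in NC, 196, 224 and 141 in Activin, and 91, 115 and 51 in Activin+HGF. It was 15.6-fold higher in Activin and 7.97-fold higher in Activin+HGF than in NC (edgeR adjusted p = 0.0112 and 0.0223), and the second call was lost without NC replicate 3 or Activin+HGF replicate 2 (highest adjusted p 0.0543). Without NC replicate 2 the latter change was 2.38 on the log2 scale, and the highest was 3.45, without NC replicate 1. IL15 rose by 1.63 and 1.18 (edgeR adjusted p = 0.00273 and 0.00818) and CTF1 by 1.55 and 1.18 (0.0121 and 0.0254) on the log2 scale in Activin and Activin+HGF against NC. CTF1 lost the first call without NC replicate 3 (0.0585), and the second without NC replicate 2 or 3 or Activin+HGF replicate 3 (up to 0.0982).

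CLCF1, a cytokine that signals through gp130 and LIFR, had 341, 480 and 515 counts in NC, 665, 878 and 739 in Activin, and 676, 1160 and 1094 in Activin+HGF, and the treated libraries lay above the controls. It rose by 1.28 on the log2 scale in Activin+HGF against NC (SE 0.240, edgeR adjusted p = 0.00304), a call kept in all 6 fits without 1 library, and had 0.78 in Activin against NC (0.0453), under the fold a call needs.

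IL12A and CSF2 were the cytokines called in Activin+HGF against Activin. IL12A, the p35 chain of IL-12, had 129, 128 and 129 counts in NC, 62, 92 and 90 in Activin, and 487, 307 and 245 in Activin+HGF. It rose by 2.29 on the log2 scale (SE 0.392, edgeR adjusted p = 0.00779) against Activin and by 1.62 (SE 0.382, 0.00953) against NC. CSF2, the myeloid growth factor GM-CSF, had 0, 4 and 0 counts in NC, 23, 42 and 4 in Activin, and 341, 183 and 96 in Activin+HGF, so the Activin+HGF libraries lay above all others. Its log2 fold change against Activin was 3.33 (SE 0.971, edgeR adjusted p = 0.0482), and this call was lost without any of 5 of the 6 libraries, all but Activin replicate 2 (up to 0.158). Its size also hung on single libraries, with 2.59 without Activin+HGF replicate 1 and 4.23 without Activin replicate 2. In Activin against NC the edgeR adjusted p of CSF2 was 0.0444, lost without NC replicate 1 or 3 or Activin replicate 1 or 2, and in Activin+HGF against NC it was 0.00194, kept in every such fit.

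**Figure D4:**
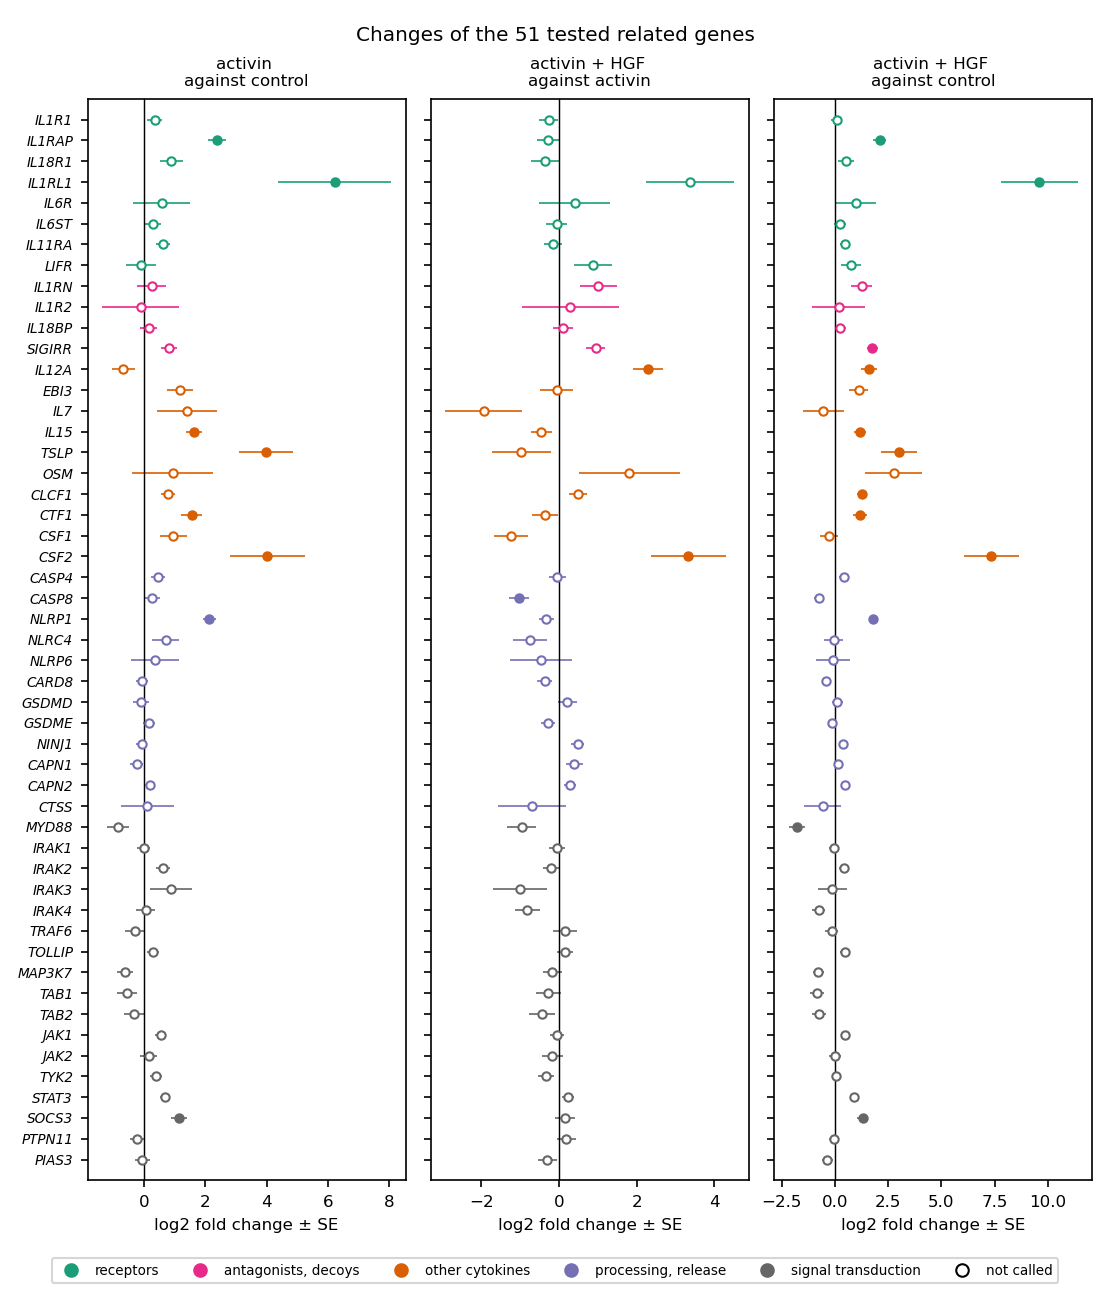
Log2 fold change and SE, as edgeR gave them, of the 51 tested related genes, with a panel per comparison, a colour per list and filled points for calls. The further cytokines hold 4 of the 8 calls in the first panel and 2 of the 3 in the second, and the values of IL1RL1 against NC, whose libraries are all at 0, are fitted and no measure of size.

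Of 12 tested processing genes 1 was called in each comparison (8.33%). The shares of all genes were 11.4% in Activin against NC, 8.09% in Activin+HGF against Activin and 21.5% in Activin+HGF against NC. In both comparisons with NC the call was NLRP1, a sensor that assembles an inflammasome in epithelium. It was higher, at 2.13 (SE 0.209, edgeR adjusted p = 0.000167) in Activin and 1.81 (SE 0.207, 0.000210) in Activin+HGF. CASP8, a caspase of cell death that can also cut IL-1β, was the 1 gene called in Activin+HGF against Activin, where it fell by 1.03 on the log2 scale (SE 0.246, edgeR adjusted p = 0.0250). This call was lost without Activin replicate 1 or 3 or Activin+HGF replicate 1 or 3 (highest adjusted p 0.0691). CASP1, the main IL-1β and IL-18 protease, was not analysed here. PYCARD, the inflammasome adaptor, had 0, 0 and 4 counts in NC, 2, 4 and 42 in Activin, and 22, 7 and 0 in Activin+HGF.

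Among 17 signalling genes, 1 was called in Activin against NC (5.88%, against 11.4% of all genes). In Activin+HGF against NC 1 was called higher and 1 lower (11.8%, against 21.5%). In Activin+HGF against Activin edgeR called 0, against 8.09% of all genes, with 2 at an unadjusted p under 0.05. DESeq2 called 0 there, and limma 1 on log2(FPKM + 0.1) and 0 on log2(FPKM + 1). SOCS3, a feedback inhibitor that STAT3 induces, rose 2.21-fold in Activin (edgeR adjusted p = 0.0138) and 2.46-fold in Activin+HGF (0.00466) against NC. Its first call was lost without NC replicate 1 or 3 or Activin replicate 2. STAT3 had log2 fold changes of 0.68 and 0.91 (edgeR adjusted p = 0.0161 and 0.00237), under the fold that a call needs. MYD88 fell by 1.80 on the log2 scale in Activin+HGF against NC (SE 0.375, edgeR adjusted p = 0.00512), from a mean of 30.6 to 8.76 CPM, with 17.0 CPM in Activin.

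Leukocyte markers moved with the comparisons in which IL11 and IL1A rose. The summed FPKM of the 7 leukocyte genes was 0.98 to 1.88 in NC, 5.32 to 9.43 in Activin and 6.22 to 8.10 in Activin+HGF, mostly CD68 (mean 0.807, 5.93 and 6.65 FPKM), a lysosomal protein of macrophages. CD68 was called higher against NC in Activin (7.12-fold, edgeR adjusted p = 0.00131) and Activin+HGF (10.2-fold, 0.000336), and so was LYZ, the lysozyme of myeloid cells (6.68-fold, 0.0134, and 3.86-fold, 0.0349). PTPRC (CD45), the defining leukocyte marker, was at 0 in 7 libraries and had 11 and 4 counts in the other two. For 5 of 6 fibroblast genes the sum was 2.31 to 2.51 FPKM in NC, 4.58 to 6.04 in Activin and 2.83 to 3.62 in Activin+HGF. It was mostly COL1A1, a collagen chain (mean 2.35, 5.12 and 3.04 FPKM), which was called higher in Activin against NC (2.05-fold, edgeR adjusted p = 0.00205). PDGFRB had means of 0.033, 0.287 and 0.097 FPKM and was not called there by edgeR, though its unadjusted p was under 0.05. DESeq2 and limma on log2(FPKM + 0.1) called both COL1A1 and PDGFRB there, and limma on log2(FPKM + 1) called 0. THY1 had 0, 40 and 25 counts in NC and 0 in every treated library. COL1A2 had 0, 23 and 6 counts in NC and 0, 0 and 10 in Activin, and DCN had 8, 4 and 0 in Activin. COL1A2 and DCN were at 0 in all Activin+HGF libraries. For 4 endothelial genes the sum was at most 0.38 FPKM in any library. Their part in the interleukin values was not tested.

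The genes with the profiles most like those of IL11 and IL1A were looked up over the 9 libraries, by Pearson's r of log2(CPM + 0.5) among the tested genes, as a description. For IL11 these were KLF2 (r = 0.990), a zinc-finger transcription factor, and KRT15 (r = 0.989), a keratin. For IL1A they were RCAN2 (r = 0.989), a calcineurin regulator, and ARFGAP3 (r = 0.977), a regulator of Golgi transport. The points share their group and library, and IL23A, with a mean of 0.968 CPM over the 9 libraries, was below the level at which the search was made.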

How the data were processed

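The authors sequenced ribosome-depleted RNA as paired ends on a NovaSeq and deposited 1 table with raw counts per gene, not normalized, and FPKM values that the authors had scaled to gene length and library size. The submitters' processing notes list cutadapt 1.9, HISAT2 2.0.4 and StringTie 1.3.4d, without roles. The counting tool, its strand setting and the genome build are not given in the sources used here. Gene positions in the table are those of GRCh38. The table also pairs genes with annotation terms, not used here. Depth was 57453977 to 77016167 counts per library. The floor of 3 counts covers counting error only.

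Counts were tested with edgeR 4.0.16 in R 4.3.3 (filterByExpr, TMM, glmQLFit and glmQLFTest) on all 9 libraries with a mean per group and no block, adjusted over 20988 genes by Benjamini-Hochberg. A gene was called when its adjusted p was under 0.05 and it changed by at least 1 on the log2 scale. Permutation tests were exact and two-sided on mean log2(CPM + 0.5). DESeq2 1.42.0 and limma 3.58.1, which adds 0.1 or 1 to the FPKM before log2, were alternatives, so its fold changes understate those of low genes. The other alternatives changed the scaling, the filter, the thresholds, the block, the libraries fitted or the counts, which were divided by 4. Scripts were tested on simulated data. Tables and plots were made with pandas 2.3.3, numpy 2.4.6 and matplotlib 3.10.9 under Python 3.11.15.

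The members and gene lists were chosen with earlier results of these data known. All members were named. A related gene could be named where called, at most 4 per list and comparison in order of p, or where it is a receptor, antagonist or processing gene of a member. The 2 genes with the most similar profile were named for each called member with a mean of at least 1 CPM. IL12B and STAT3 were named after their values were seen.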

Additional observations from a re-analysis of the deposited data

How the results depend on the processing

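IL11 kept its calls against NC in all 17 alternatives, with log2 fold changes of 1.20 to 2.62 in Activin and 1.52 to 3.45 in Activin+HGF, and in Activin+HGF against Activin it was called in 0 of 17 (edgeR, DESeq2 or limma adjusted p from 0.0185 to 0.234). Over the 306 single-interleukin alternatives, 283 kept sign and call, 11 lost a call, 2 gained one and 10 changed sign without any call. The sign changes were IL18 in Activin against NC without Activin replicate 1 (0.0049), in Activin+HGF against Activin with library totals (-0.0045) and limma (-0.058 with 0.1 added, -0.054 with 1), and in Activin+HGF against NC with library totals (-0.030) and limma (-0.077 and -0.072), IL32 in Activin against NC without Activin replicate 2 (-0.10), and LIF in Activin+HGF against Activin without Activin replicate 2 (0.15) or Activin+HGF replicate 1 (0.30). Without 1 library at a time these 3 reached from -0.16 to 0.0049 for IL18, -0.10 to 0.70 for IL32 and -0.23 to 0.30 for LIF. With library totals all genes moved together, and relative to their median IL18 stood at 0.38 in Activin+HGF against Activin with either scaling, and at 0.28 with TMM and 0.27 with totals against NC. For the changes without 1 library the cause was not tested.

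Counts of calls are given for Activin against NC, Activin+HGF against Activin and Activin+HGF against NC in that order. Interleukins (3, 0 and 2) became 1, 0 and 1 with limma on log2(FPKM + 1), 1 in the first with an adjusted p under 0.01, and 1 in the second with limma on log2(FPKM + 0.1), and without 1 library they ranged from 1 to 3, 0 to 0 and 2 to 3. Related genes (8, 3 and 12) became 2 and 3 in the first and last with limma on log2(FPKM + 1), and 3 and 1 in the first and second under 0.01. Their second count was 1 with only the 6 libraries compared, 5 with DESeq2 and 6 with limma on log2(FPKM + 0.1), and without 1 library the ranges were 4 to 7, 1 to 6 and 10 to 13. All tested genes (2394, 1697 and 4519) became 1176, 660 and 2206 with limma on log2(FPKM + 1), 1421, 452 and 2973 under 0.01, and 3776 and 2698 in the first and second with no minimum fold, and the second was 677 with only 6 libraries. Without 1 library they ranged from 1688 to 2234, 606 to 2418 and 3537 to 4488.

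The second count split into 813 higher and 884 lower, against 319 and 1805 with library totals, 639 and 1047 with upper quartiles, and 387 and 1883 with limma on log2(FPKM + 0.1), and the third into 2378 and 2141, against 1598 and 3187 and, with limma, 1465 and 3330. With library totals the median log2 fold change of all genes was 0.10, -0.38 and -0.30, against 0.02, -0.04 and -0.03 with TMM. With a replicate block the interleukin counts were 3, 0 and 2, the related counts 7, 3 and 12, and the counts over all genes 2218, 1366 and 4222. Libraries of equal number had deviations from their group means correlated at -0.103 to 0.195, so the numbers were not taken as pairs. Depth limits IL1B, IL6 and IL36G, which did not pass the filter of the main fit. The alternative without a filter kept them, and their values there are not given.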
